A study of Mus musculus with 2 samples.

Results

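This report describes the alpha-actinins, myosins and tropomyosins in 2 sorted fractions of mouse memory Th2 (type 2 helper T) cells, the IL-5+ fraction, which makes the cytokine IL-5, and the IL-5- fraction. The members were every probe set with a single gene symbol made of Actn, Myo, Myh, Myl or Tpm directly followed by a digit, which gave 106 probe sets of 55 genes among 18193 named genes. Both fractions came from CD4 T cells of the spleens of BALB/c mice with the DO11.10 TCR Tg, a transgenic receptor for a peptide of ovalbumin (OVA). The cells were stimulated with OVA peptide in Th2 culture for 6 days with 25 U/ml IL-2 and 100 U/ml IL-4, and were then given to syngeneic BALB/c nu/nu mice, whose lack of a thymus leaves the host with few T cells of its own. After 30 days the memory cells in the spleen were separated by flow sorting, and RNA of the IL-5+ and of the IL-5- fraction was hybridised to 1 Affymetrix array each. The labels give neither the age nor the number of the mice, nor whether animals were pooled.

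With 1 array per group nothing could be tested, and no p-value is given. The sole measurable error was how far probe sets for 1 gene disagreed when they fell in the same range of mean signal. Expressed as an SD of log2 ratios, it was 0.54 for the dimmest probe sets (mean signal 36.3 to 112.8), 0.38 up to 500, 0.21 up to 2000 and 0.13 beyond. It leaves out variation between cell preparations, and also disagreement between bright and dim probe sets of 1 gene. A signal is the scanner's brightness of a probe set, and levels of different probe sets cannot be set against each other. A floor of 36.3 (the 40th percentile over both arrays) replaced every signal below it. The SD uses only probe sets above the floor on both arrays. Where 1 array only exceeded the floor, the ratio is a bound ("at least"), and where neither did, no ratio is given. Each gene was represented by its brightest probe set, and log2 ratios are IL-5+ over IL-5-. In cells of a bulk sort, fewer cells with a transcript and less of it per cell cannot be told apart.

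Actin filaments under the membrane of a T cell give it shape, drive migration and build the contact with antigen-presenting cells. Alpha-actinins cross-link these filaments and tie them to integrins, tropomyosins coil along them and gate the access of motors, and class II myosins, made of heavy chains with a regulatory and an essential light chain, pull on them. Unconventional myosins walk along filaments singly or in pairs and carry vesicles, hold the membrane or organise protrusions. The muscle forms of these families build sarcomeres and smooth muscle, and blood cells rely on the non-muscle forms.

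Of the 55 members, 35 exceeded the floor, 31 on each array and 4 on a single one, and 20 never did. No probe set of the 20 exceeded 30.9 in IL-5+ cells or 35.2 in IL-5- cells. Of the 35, 3 were at least 2-fold higher in IL-5+ cells (Myo10, Myh10 and Myo1e), where the background over 13133 measured genes was 2.85%. A further 4 (Actn1, Myo6, Myh7 and Myl6b) were at least 2-fold lower, against a background of 4.01%. Together these are 7 of 35, where the background for either direction was 6.85%. Actn1 and Myo6 were at least 8-fold lower, as were 0.114% of all measured genes. Myo1e and Myh7 were above the floor on 1 array only, so each entered through the array where it was high and had to differ. Among the 31 members above the floor on both arrays, 2 were higher and 3 were lower, against backgrounds of 2.49% and 3.39%. With so few genes these shares are a description. The median log2 ratio of the 35 was 0.15, where that of all measured genes was -0.048. The brightest members differed least apart from 2 genes. Among the 14 members with a signal of at least 500, 0 were at least 2-fold higher (background 2.22% of genes that bright) and 2, Actn1 and Myo6, were lower (background 2.46%). The other 12 lay between -0.22 and 0.80. Of the 31 members on both arrays, 21 (67.7%) lay within 0.5 of 0 on the log2 scale, as did 77.8% of all genes on both arrays.

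**Figure D1:**
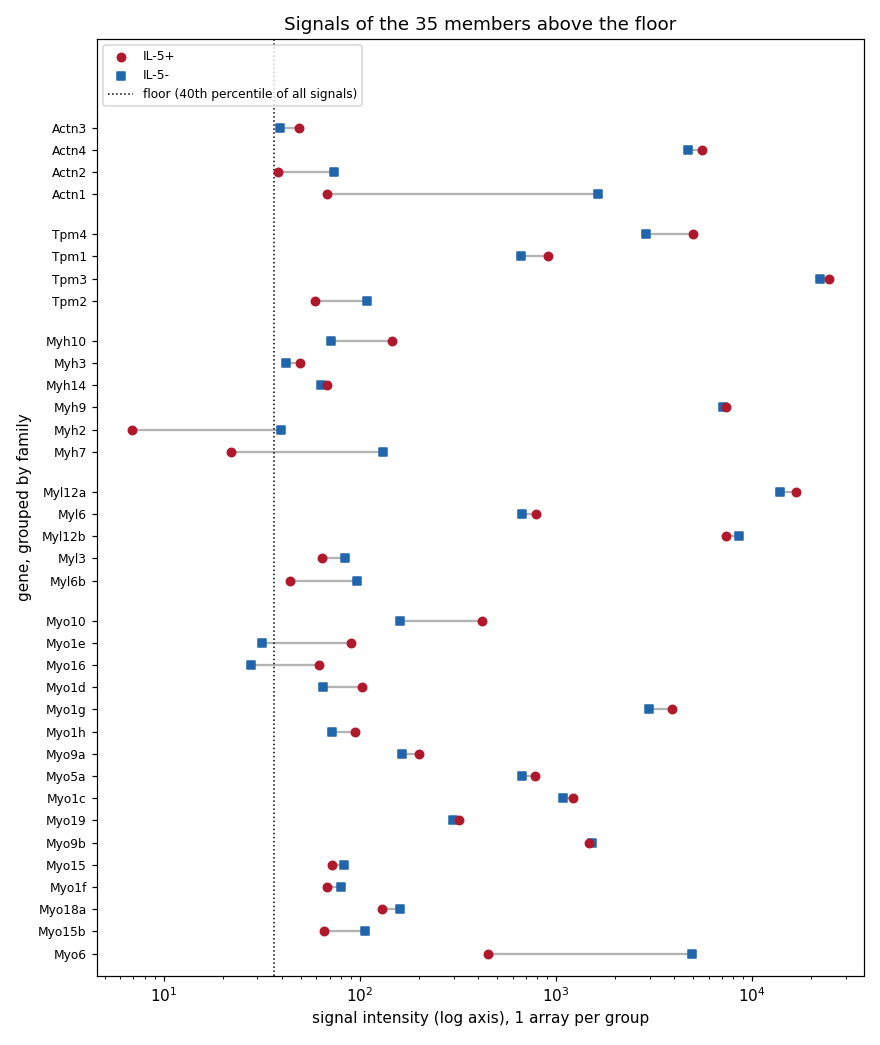
Signals of the 35 members above the floor, on a logarithmic axis, with a circle for the IL-5+ array, a square for the IL-5- array and a line joining them. The pairs of Actn1 (67.8 and 1643) and Myo6 (450.7 and 4923) lie far apart, while those of Myh9, Tpm3, Actn4 and the Myl12 genes nearly coincide; levels of different genes are not comparable.

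**Figure D2:**
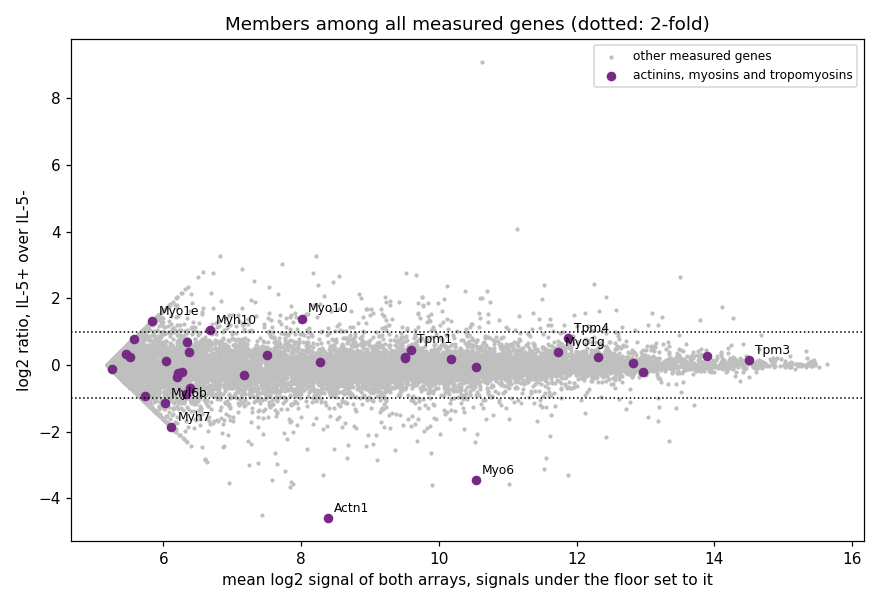
Log2 ratio of IL-5+ over IL-5- signals against the mean log2 signal for each measured gene, with the members in colour and 2-fold marked by dotted lines. Actn1 (-4.60) and Myo6 (-3.45) have the lowest and the 10th lowest ratio of all genes, and most other members lie within the band of the other genes.

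The alpha-actinins split. Actn1, one of the 2 non-muscle alpha-actinins, had a signal of 67.8 in IL-5+ cells and 1643 in IL-5- cells, 24.2-fold lower in IL-5+ cells (log2 ratio -4.60), the lowest ratio of all 13133 measured genes. The IL-5+ signal lay close to background, and with the median of its 3 probe sets in place of the brightest the log2 ratio was -1.96, a bound. Its other probe sets were dim. One had 6.10 in IL-5+ cells and 141 in IL-5- cells, at least 3.89-fold lower, and the third had 11.2 and 40.8, a bound of only 1.12-fold. Actn4, the other non-muscle alpha-actinin, had 5537 in IL-5+ cells and 4691 in IL-5- cells (log2 ratio 0.24). Its signals on the arrays were thus within 1.18-fold of each other. The sarcomeric forms Actn2 (38.4 in IL-5+ cells and 74.0 in IL-5- cells) and Actn3 (48.8 and 39.3) stayed near the floor.

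Myo6 encodes myosin VI, which moves along actin opposite to the other myosins and works in endocytosis and in sorting of vesicles. Its brightest probe set had 450.7 in IL-5+ cells and 4923 in IL-5- cells, 10.9-fold lower in IL-5+ cells (log2 ratio -3.45). The other probe sets had 95.9 and 66.1 in IL-5+ cells, against 1398 and 283.9 in IL-5- cells, with log2 ratios of -3.87 and -2.10. Each of the 3 exceeded the floor in both fractions, and none showed a smaller difference than 4.29-fold. Of all 13133 genes, 9 had a lower ratio than Myo6.

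The start regions of Actn1 and Myo6, the members with the largest differences, are shown with those of Actn4, the alpha-actinin that differed little, and of Myo10, which was 2.62-fold higher in IL-5+ cells. Each window runs from 250 bases before to 50 bases after a gene's start in RefSeq (GRCm38.p6), 5′ to 3′ on the strand of the gene, and was matched by symbol. Capitals mark GGGCGG or its complement on the other strand, CCGCCC, the GC box, with overlapping matches each counted. The windows lie at chr12:80260314-80260613 (minus strand) for Actn1, chr9:80164784-80165083 (plus strand) for Myo6, chr7:28962283-28962582 (minus strand) for Actn4, and chr15:25622300-25622599 and chr15:25752956-25753255 (plus strand) for the 2 listed starts of Myo10.
Actn1: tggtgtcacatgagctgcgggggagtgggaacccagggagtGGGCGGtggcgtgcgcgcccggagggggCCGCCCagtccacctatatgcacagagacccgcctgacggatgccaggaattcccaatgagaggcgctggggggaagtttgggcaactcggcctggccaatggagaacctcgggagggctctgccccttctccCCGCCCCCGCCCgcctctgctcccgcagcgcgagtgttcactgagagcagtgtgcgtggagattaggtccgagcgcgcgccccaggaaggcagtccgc
Myo6: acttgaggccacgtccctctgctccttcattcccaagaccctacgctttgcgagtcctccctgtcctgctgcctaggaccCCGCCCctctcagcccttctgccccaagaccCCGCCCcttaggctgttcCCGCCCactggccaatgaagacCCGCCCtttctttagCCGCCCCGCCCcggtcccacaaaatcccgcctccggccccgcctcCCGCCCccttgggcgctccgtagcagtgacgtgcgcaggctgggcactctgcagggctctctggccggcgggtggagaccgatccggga
Actn4: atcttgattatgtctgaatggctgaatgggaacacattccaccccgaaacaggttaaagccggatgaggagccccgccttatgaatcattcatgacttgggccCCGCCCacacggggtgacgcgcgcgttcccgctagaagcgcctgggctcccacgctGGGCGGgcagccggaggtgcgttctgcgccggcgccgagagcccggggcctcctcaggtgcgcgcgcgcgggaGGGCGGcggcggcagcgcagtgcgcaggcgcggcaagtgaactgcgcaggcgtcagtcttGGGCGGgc
Myo10, first start: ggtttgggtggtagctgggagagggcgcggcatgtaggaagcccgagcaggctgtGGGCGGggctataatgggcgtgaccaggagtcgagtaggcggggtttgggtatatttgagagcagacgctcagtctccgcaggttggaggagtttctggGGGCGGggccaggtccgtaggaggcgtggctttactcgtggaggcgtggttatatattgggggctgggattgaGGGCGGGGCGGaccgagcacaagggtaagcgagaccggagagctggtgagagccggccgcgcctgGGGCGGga
Myo10, second start: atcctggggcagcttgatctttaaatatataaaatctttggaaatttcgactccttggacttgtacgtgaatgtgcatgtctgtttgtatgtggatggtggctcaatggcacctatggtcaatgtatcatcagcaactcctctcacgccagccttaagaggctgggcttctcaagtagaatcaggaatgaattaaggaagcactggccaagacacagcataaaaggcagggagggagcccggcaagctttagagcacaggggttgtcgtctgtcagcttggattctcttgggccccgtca

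The window of Actn1 holds 4 GC boxes, that of Myo6 holds 7, that of Actn4 holds 4, and the first window of Myo10 holds 5 and the second 0. A GC box occurs in 35.7% of all 32851 windows. CACCC, searched on both strands, the core of sites bound by Kruppel-like factors, occurs 0 times in the Actn1 window, 1 time in that of Myo6, 2 times in that of Actn4, and 1 time in the first and 0 times in the second of Myo10, none overlapping a GC box. It occurs in 57.5% of all windows. The CArG box, the palindromic site of serum response factor, was found in none of the 5 windows and in 1.63% of all. The windows of Actn1 and Myo6 each have G and C at 68.3% of their bases, and that of Actn4 at 68.0%. The first window of Myo10 has 64.7% and the second 48.0%, where the median over all windows was 52.7%. A match or its absence in so short a window is a description of these letters.

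Of the 4 tropomyosins, 3 had ratios above 0, as had 5839 of all 13133 measured genes, and none was 2-fold apart. Tpm4, a tropomyosin of non-muscle cells, had a single probe set with 4972 in IL-5+ cells and 2860 in IL-5- cells (1.74-fold, log2 ratio 0.80), 5.93 times the probe-set SD of 0.13 at that brightness. Tpm1, which has muscle and non-muscle isoforms, had 910.8 in IL-5+ cells and 661.6 in IL-5- cells (log2 ratio 0.46). Its 3 measured probe sets gave 0.38, 0.46 and 0.91, the last from signals of 894.6 and 476.2. Which isoforms these probe sets detect was not analysed here. Tpm3, a tropomyosin of slow muscle and of most non-muscle cells, had 24535 in IL-5+ cells and 22113 in IL-5- cells, and its 5 probe sets ranged from -0.019 to 0.16. Tpm2 was dim, with 58.9 in IL-5+ cells and 108.4 in IL-5- cells (log2 ratio -0.88), and its second measured probe set gave -0.27. The direction of the ratios of Tpm1, Tpm3 and Tpm4 was the same under every scaling tried.

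Among the heavy chains of non-muscle myosin II, Myh9 barely differed and Myh10 passed 2-fold at low signals. Myh9, the heavy chain of myosin IIA and the form that dominates in lymphocytes, had 7311 in IL-5+ cells and 7092 in IL-5- cells (log2 ratio 0.044). Its 5 probe sets, all above the floor on both arrays, lay between -0.049 and 0.46, and the highest belonged to the dimmest. Myh10, the heavy chain of myosin IIB, had 145.9 in IL-5+ cells and 71.2 in IL-5- cells, 2.05-fold higher in IL-5+ cells (log2 ratio 1.03). At that brightness the probe-set SD was 0.54, and its second probe set, above the floor only in IL-5+ cells (47.4 and 1.90), gave a bound of 1.31-fold. With a floor of 112.8 the log2 ratio of Myh10 was 0.37. Myh14, the heavy chain of myosin IIC, had 68.3 in IL-5+ cells and 63.4 in IL-5- cells.

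The light chains that accompany Myh9 differed little and not in one direction. The regulatory light chain genes Myl12a and Myl12b lie next to each other on chromosome 17. Myl12a had 16763 in IL-5+ cells and 13808 in IL-5- cells (log2 ratio 0.28), and its dimmer probe set gave 0.15. Myl12b had 7390 in IL-5+ cells and 8604 in IL-5- cells (log2 ratio -0.22). The neighbours thus had ratios of opposite sign, at 2.08 and 1.63 times the probe-set SD of 0.13. The essential light chain gene Myl6 had 792.0 in IL-5+ cells and 671.2 in IL-5- cells (log2 ratio 0.24). Myl6b, a related essential light chain next to Myl6 on chromosome 10, had 43.9 in IL-5+ cells and 96.4 in IL-5- cells, 2.20-fold lower in IL-5+ cells (log2 ratio -1.13), with both signals under 112.8. With the 40th percentile added to every signal its log2 ratio was -0.73. Myl9, the regulatory light chain of smooth muscle and platelets, had 5.60 in IL-5+ cells and 2.40 in IL-5- cells, under the floor on both, as was Myl10.

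Class I myosins link membrane to the actin cortex. Of the 7 on the array, 6 were measured, and 5 of these had ratios above 0, as had 5839 of all 13133 measured genes. Myo1g, a class I myosin of blood cells, had 3906 in IL-5+ cells and 2969 in IL-5- cells (log2 ratio 0.40), beyond the probe-set SD of 0.13. Myo1c, which is found in many tissues, had 1225 in IL-5+ cells and 1088 in IL-5- cells, and its 4 probe sets lay between 0.0061 and 0.17. Myo1e, which binds membrane at sites of endocytosis and adhesion, had 89.9 in IL-5+ cells and 31.5 in IL-5- cells, at least 2.48-fold higher. Its 4 probe sets ran from -0.39 to 1.31 and none was above the floor on both arrays. Their median, made of bounds, gave a log2 ratio of 0.71. Myo1d had 102.9 in IL-5+ cells and 64.5 in IL-5- cells (log2 ratio 0.67), and its other probe set, above the floor only in IL-5- cells, gave -0.23. Myo1h had 94.4 in IL-5+ cells and 72.0 in IL-5- cells. Myo1f, another class I myosin of blood cells, was dim and ran the other way, with 68.0 in IL-5+ cells and 80.4 in IL-5- cells, and probe sets from -0.99 to -0.24.

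Among the other unconventional myosins, 5 of 10 measured genes lay above 0 and 5 below. Of all 13133 measured genes, 5839 lay above 0 and 7285 below. Myo10, a motor of filopodium tips that binds phosphoinositides, had 417.4 in IL-5+ cells and 159.2 in IL-5- cells, 2.62-fold higher in IL-5+ cells (log2 ratio 1.39). The next 2 probe sets had 214.1 and 175.9 in IL-5+ cells, against 132.5 and 102.3 in IL-5- cells (log2 ratios 0.69 and 0.78). The 3 were higher in IL-5+ cells, 1 of them by 2-fold or more. The fourth was above the floor in IL-5+ cells only, at 42.0, and could only give a ratio above 0. The median over the 4, with that bound included, was 0.74. Myo5a, a vesicle carrier, had 781.8 in IL-5+ cells and 671.6 in IL-5- cells, with probe sets from -0.24 to 0.22. Myo9a and Myo9b encode motors that also carry a GTPase-activating domain. Myo9a had 199.3 in IL-5+ cells and 163.7 in IL-5- cells (0.28), and Myo9b had 1464 and 1523 (-0.057, or 0.021 with each array divided by its median). Myo19, a motor on mitochondria, had 320.2 in IL-5+ cells and 299.2 in IL-5- cells, while its dim second probe set gave -1.12. Myo18a, which ties the Golgi to actin, had 130.0 in IL-5+ cells and 160.6 in IL-5- cells. Myo15, a motor of the stereocilia of hearing (72.0 and 82.7), Myo15b (65.3 and 106.5) and Myo16 (62.1 and 27.9, at least 1.71-fold higher) stayed under 112.8 on both arrays.

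**Figure D3:**
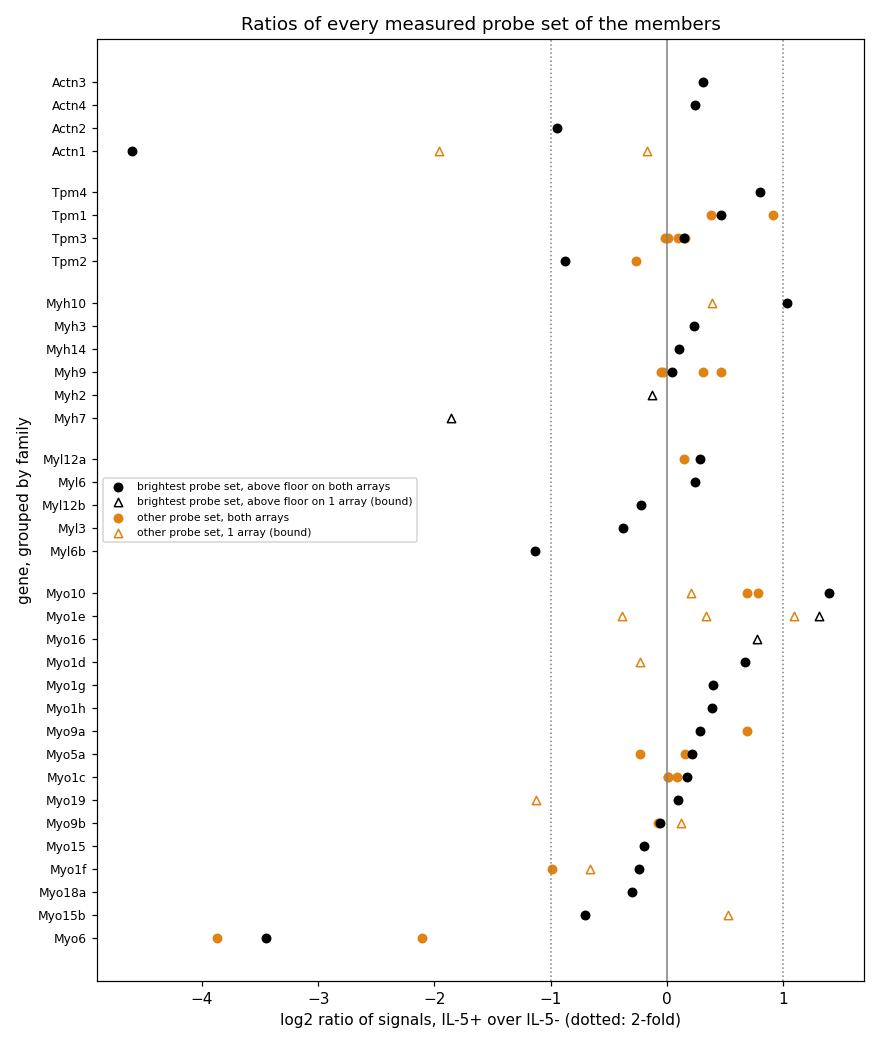
Log2 ratio of IL-5+ over IL-5- signals of every probe set above the floor, by gene, with the brightest probe set of each gene in black, other probe sets in orange and triangles for bounds. The 3 probe sets of Myo6 lie between -3.87 and -2.10, the 4 of Myo10 between 0.21, a bound, and 1.39, and those of Myh9 and Tpm3 near 0.

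Of 18 members with several measured probe sets, 8 had probe sets of both signs. In Myo15b, Myo19, Myo1d and Myo9b the opposite sign came from a bound, whose sign follows from the array that passed the floor. Myo1e had bounds only. The count is therefore no measure of how far a small ratio can be read, and the share over all genes was not computed. Only 8 of the 31 members on both arrays had ratios beyond 2 probe-set SDs, namely Actn1, Myo6, Tpm4, Myo10, Myo1g, Tpm1, Myl6b and Myl12a. Of all genes on both arrays, 17.7% passed the same limit, against 25.8% of the members.

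The muscle forms gave little signal. Of the 17 members of the muscle class, 11 were under the floor on both arrays. The highest signal of the class was 64.4 in IL-5+ cells and 131.8 in IL-5- cells. Myh7, the slow and cardiac heavy chain, had 22.1 in IL-5+ cells and 131.8 in IL-5- cells, lower by at least 3.63-fold. Myh7 was 1 probe set near the floor, and its log2 ratio was -0.22 with a floor of 112.8. Myh2 (6.90 in IL-5+ cells and 39.8 in IL-5- cells), Myh3 (49.7 and 42.2) and Myl3 (64.4 and 83.5) were also dim. The members under the floor on both arrays were Myh1, Myh4, Myh6, Myh7b, Myh8, Myh11, Myl1, Myl2, Myl4, Myl7 and Myo18b of the muscle class, together with Myl9, Myl10, Myo1a, Myo3a, Myo3b, Myo5b, Myo5c, Myo7a and Myo7b.

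Markers of the labelled cell type were bright apart from Cd4. All 8 measured T cell markers were above the floor on both arrays. Their summed signal was 51160 in IL-5+ cells and 62910 in IL-5- cells. The highest IL-5- signals were those of Cd3d (9116 in IL-5+ cells and 13553 in IL-5- cells) and Cd2 (8243 and 11005). Cd4 was the dimmest, with 454.5 in IL-5+ cells and 471.0 in IL-5- cells. The sums of different lists come from different probe sets and cannot be set against each other. Markers of other cells in which members of these families abound were dim. Of 18 skeletal and cardiac muscle markers 6 were under the floor on both arrays, and the brightest were Tnnt1 (139.5 in IL-5+ cells and 182.8 in IL-5- cells) and Acta1 (99.9 and 132.3), with sums of 729.6 and 966.4. Of 13 smooth muscle and stroma markers 7 were under the floor on both, and the brightest were Pdgfra (61.5 and 10.4) and Col1a2 (60.3 and 31.1), with sums of 305.8 and 328.3. Of 8 platelet markers Pf4 and Ppbp were under the floor on both, and the brightest were Itga2b (225.7 and 275.9) and Itgb3 (99.6 and 101.0), with sums of 519.6 and 631.6. The other lists had sums on the IL-5+ and IL-5- arrays of 619.9 and 588.8 for endothelium (brightest Pecam1 and Egfl7), 204.8 and 293.8 for B cells (Pax5 and Ms4a1) and 390.4 and 502.0 for monocytes, macrophages and dendritic cells (Csf1r and Cd68). They were 128.6 and 168.2 for neutrophils (Elane and Csf3r), 488.2 and 604.2 for CD8 T and NK cells (Gzma and Cd8b1), 193.8 and 124.3 for erythroid cells (Epor and Klf1) and 311.6 and 359.3 for epithelium and hair cells (Epcam and Otof). Gzma, at 87.4 in IL-5+ cells and 316.3 in IL-5- cells, was the only marker of these lists whose brightest probe set differed by at least 2-fold with the floor used. The lowest log2 ratio among the dimmer probe sets was -1.94 for Epcam and -1.68 for Tnnt2, where their brightest gave -0.11 and -0.33. Markers above the floor on 1 array only have bounds, which set no upper limit to the difference. Examples are Pax5 (6.40 in IL-5+ cells and 70.2 in IL-5- cells) and Pdgfra. The part of other cells in the ratios of the members was not tested.

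Partners and regulators of these families, in 6 lists, mostly differed little. The lists hold 154 different genes with a named probe set, of which 132 were measured, 4 of them at least 2-fold higher (3.03%) and 5 lower (3.79%), with a median log2 ratio of -0.0001. These shares were close to the backgrounds of 2.85% and 4.01%, which also apply to the counts of each list below.

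Regulators of myosin light chain phosphorylation, which switch non-muscle myosin II on and off, had a median of 0.059 with 1 of 19 measured genes at least 2-fold higher and 0 lower. That gene was Rhoc, a small GTPase, with 267.9 in IL-5+ cells and 97.8 in IL-5- cells (log2 ratio 1.45), and its 2 probe sets gave 1.32 and 1.45. The next largest ratio belonged to Arhgef1, an exchange factor downstream of G proteins, at -0.77 (420.2 and 717.0).

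Alpha-actinin and integrin adhesion partners had a median of 0.094, with 0 of 26 at least 2-fold higher and 1 lower. Evl, which speeds filament growth at adhesions, had 1257 in IL-5+ cells and 2904 in IL-5- cells (log2 ratio -1.21), with 4 probe sets from -1.65 to -0.72. Its ratio was under 2-fold when its probe sets were summarised by their median or when suffixed ones were left out. Vcl, which encodes vinculin, a direct binder of alpha-actinin, had 785.6 in IL-5+ cells and 425.4 in IL-5- cells (log2 ratio 0.89), although its second probe set gave 0.14. Of the 26, 16 lay above 0 and 10 below, where 5839 of all 13133 measured genes lay above 0 and 7285 below.

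Actins and filament assembly genes had a median of 0.019, with 0 of 29 at least 2-fold higher and 1 lower, Tmod1, a cap of filament ends that binds tropomyosin (40.8 in IL-5+ cells and 85.2 in IL-5- cells, log2 ratio -1.06). Tmod1 came under 2-fold in each other scaling. Among genes above the floor on both arrays, Wipf1, a partner of the WASP protein, followed at -0.56. Cttn, which encodes cortactin, had 62.6 in IL-5+ cells and 27.9 in IL-5- cells, a bound of 0.79.

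Other actin filament binding and cortex proteins had the lowest median of the partner lists, -0.27. Of 28 measured genes, 0 were at least 2-fold higher and 3 lower, against backgrounds of 2.85% and 4.01%. Below 0 lay 22, as did 7285 of all 13133 measured genes. These counts use the brightest probe sets. The probe sets of Ezr ran from -0.46, the brightest, to 2.41, and those of Add3 from -1.12 to 1.19. Fscn1 encodes fascin, which bundles filaments as alpha-actinin cross-links them, and had 71.4 in IL-5+ cells and 564.7 in IL-5- cells, 7.91-fold lower in IL-5+ cells (log2 ratio -2.98), with a second probe set at -0.19. Cnn3, a calponin, had 657.9 in IL-5+ cells and 1814 in IL-5- cells (log2 ratio -1.46), with 6 probe sets from -1.47 to -0.20. Marcksl1, a membrane-bound actin binder, had 276.9 in IL-5+ cells and 694.0 in IL-5- cells, and its 4 probe sets lay between -1.33 and -1.17. When probe sets whose suffix (_s_at, _x_at or _a_at) marks a match to several transcripts were left out, 1 gene of this list was lower in place of 3.

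Serum response factor, its cofactors and classical targets had a median of 0.092, with 2 of 20 at least 2-fold higher and 0 lower. These were Fos, an immediate early gene (1224 in IL-5+ cells and 322.9 in IL-5- cells, log2 ratio 1.92), and Elk3, an ETS factor that binds with serum response factor (1755 and 862.3, log2 ratio 1.03), of which 1 stayed past 2-fold when probe sets were summarised by their median. Srf itself stood at 0.14. Myosin partners, cargo adaptors and chaperones had a median of 0.057, with 1 of 18 at least 2-fold higher and 0 lower. That gene was S100a4, which binds the tail of the Myh9 product, with 376.2 in IL-5+ cells and 138.8 in IL-5- cells (log2 ratio 1.44). Rab27a, which recruits myosin Va to vesicles, was next at -0.54.

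**Figure D4:**
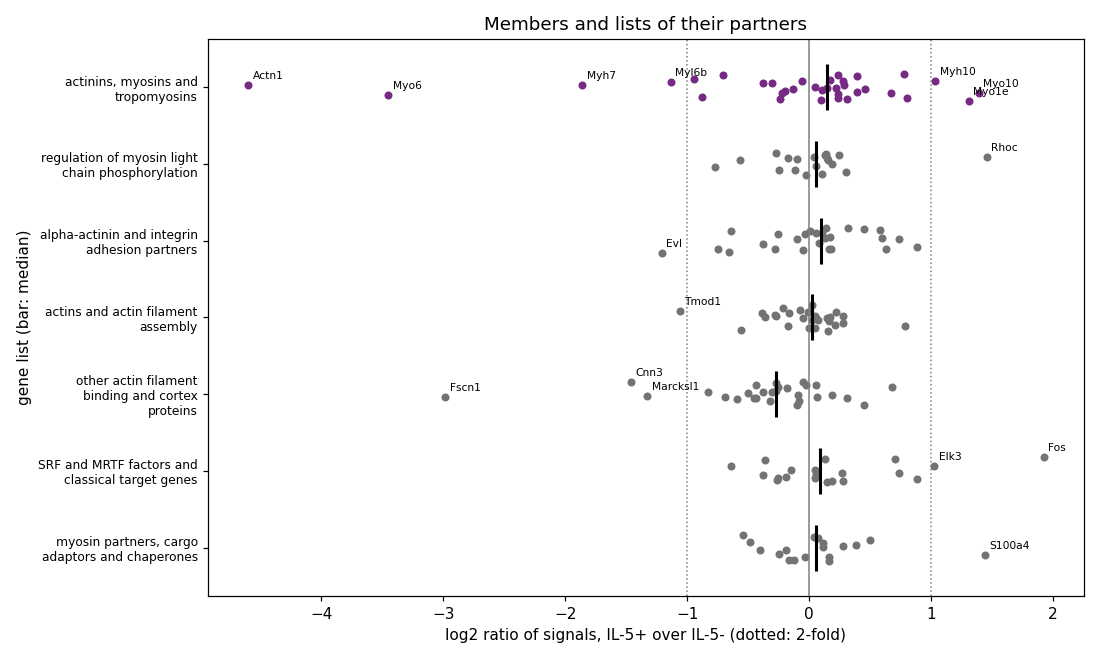
Log2 ratio of IL-5+ over IL-5- signals of each measured gene, 1 row for the members and 1 for each list of partners, with a bar at the median and names at genes at least 2-fold apart. The medians lie between -0.27 and 0.15, and Actn1, Myo6 and Fscn1 stand far to the left of all other genes shown.

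**Figure D5:**
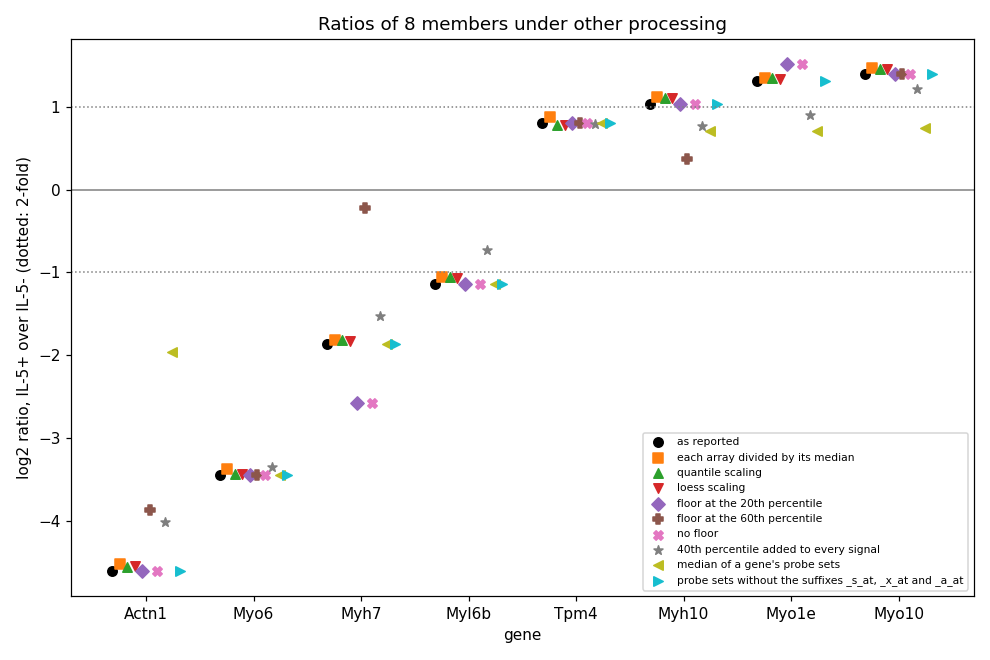
Log2 ratio of the 7 members at least 2-fold apart and of Tpm4 as reported and under 9 other ways of processing, with a symbol for each. Myo6 (-3.45 to -3.35) and Tpm4 (0.78 to 0.88) hardly moved, Actn1 was at -1.96 or below in all of them, and Myh7, Myl6b, Myh10, Myo1e and Myo10 each crossed 2-fold in at least 1.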

How the data were processed

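RNA of 1 IL-5+ and 1 IL-5- sample was measured on 1 Affymetrix array each. The values deposited by the authors are linear signal intensities, 1 for each probe set, and the submitters' processing notes name GCOS, the Affymetrix software. The software version, the summary algorithm and the target of scaling were not given in the sources used here. Trimmed means (2% off each end) were 496 in IL-5+ and 497 in IL-5- cells, so ratios are relative to the rest of each array. Probe sets were named from the platform annotation of 45037 probe sets, of which 34945 had 1 symbol, 932 had several and 9160 had no entry there. All 55 members matched RefSeq by entrez identifier, with no symbol changed.

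The floor, the representative probe set and the 2-fold rule are those given above. Counting was tested on simulated data, with changes past 2-fold planted only in genes well above the floor on both arrays. Dim genes, bounds and false calls were not covered. The text names every measured member, the genes of each partner list past 2-fold and, where fewer than 2 were, those with the largest ratios among genes above the floor on both arrays, and the 2 brightest markers of lists of other cells. Srf, Cttn, Ezr, Add3, Tnnt2, Cd4, Pf4 and Ppbp fall outside this rule and were chosen after their values were seen. The members and lists were chosen with earlier results of these data known, and list genes without a named probe set were not analysed here. Alternatives covered scaling, floor, probe sets and fold. Python 3.11.15, numpy 2.4.6, pandas 2.3.3 and statsmodels 0.14.6 were used. The number of arrays limits the precision.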

Additional observations from a re-analysis of the deposited data

How the results depend on the processing

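The count of members at least 2-fold higher (3) and lower (4) depended on dim signals. Moving the floor to the 20th percentile (11.5) gave 7 and 7, where the shares of all genes higher and lower were 7.98% and 9.47%. With the 60th (112.8) the counts were 1 and 2 (2.01% and 2.48% of all genes), and without a floor 10 and 10 (11.3% and 12.7%). With the 40th percentile added to every signal 1 was higher (Myo10) and 3 lower (1.74% and 2.33% of all genes), and taking the median over a gene's probe sets 0 were higher and 4 lower (2.48% and 3.41%). A 1.5-fold limit gave 6 and 7 (7.89% and 11.9% of all genes), and a 3-fold limit 0 and 3 (0.693% and 1.09%). The other 3 scalings and leaving out suffixed probe sets gave 3 and 4 each. With each array divided by its median, the shares of all genes higher and lower were 3.31% and 3.37%. They were 3.14% and 3.53% with quantile scaling and 3.08% and 3.57% with loess scaling. Without suffixed probe sets they were 2.81% and 4.0035%. The median of the members stayed between 0.069 and 0.23 over the 9 settings, while that of all genes stayed between -0.051 and 0.026. Actn1 stood at -1.96 with the median of its probe sets, at -3.86 with the floor of 112.8 and at -4.01 with the added constant. Myo1e, a bound of 1.31 as reported, stood at 1.51 with the lower floor, above the 1.39 of Myo10. Myo10 and Myo1e stood at 0.74 and 0.71 with the median of their probe sets, and Myh10 at 0.37 with the floor of 112.8. No ratio past 2-fold changed sign. Of 299 ratios of single members under these settings, 283 moved by less than the probe-set SD at that brightness and 16 by more. Many of the 299 could not move. A lower floor or none leaves a gene above the floor on both arrays unchanged, and the median leaves a gene with 1 measured probe set unchanged. Members not measured in a setting are not among the 299. The count is therefore no measure of stability. The lists were recomputed as well, a choice made after seeing the data, and Evl and Tmod1 each came under 2-fold in some settings. Of list counts at least 2-fold higher, 21 moved by more than 1.5-fold or to or from 0, and 127 did not. For counts lower these were 37 and 111. Of list medians, 25 moved by 0.1 or more and 123 by less. With the 20th percentile as floor, 3 B cell markers were lower in place of 0 (9.47% of all genes). The cause of these shifts was not tested beyond what the settings change by construction. No paired analysis was possible because each group had 1 array.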

Other observations

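Probe sets that list several symbols were outside the rule and stand apart here. A pair listing Myl6 with 2 predicted genes had 16889 and 19326 in IL-5+ cells, against 14534 and 18299 in IL-5- cells, with log2 ratios of 0.22 and 0.079. The single-symbol probe set of Myl6 gave 0.24. A probe set shared by Myh6 and Myh7 had 34.7 in IL-5+ cells and 50.5 in IL-5- cells, close to the floor.

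The CArG box, a site of serum response factor, was found in 6 of 61 RefSeq start windows of members (9.84%), against 1.63% of all windows. The genes were Myh4, Myl3, Myl6, Myl7, Myl9 and Myo1e, of which Myl3, Myl6 and Myo1e were measured, with log2 ratios of -0.37, 0.24 and 1.31, the last a bound. The GC box was found in 50.8% of the members' windows, against 35.7% of all. Several members have more than 1 window, and no test was made.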
